A study of Mus musculus with 15 samples.

Results

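The genes described here are the transcription factor NRF2, encoded by Nfe2l2, and 9 antioxidant enzyme genes that are known targets of it: Nqo1, Nqo2, Gclc, Gclm, Hmox1, Srxn1, Txnrd1, Gsr and G6pdx. They were chosen by symbol, and all 10 symbols matched a single gene ID among the 55450 IDs of the liver count table. All 10 had enough reads to be tested beside the 15808 genes that passed the filter on low counts. Liver mRNA was sequenced from 15 female C57BL/6 mice, with 1 library per mouse and 5 mice in each of 3 groups. The Adult group, mice A1 to A5, was 6 months of age and was gavaged daily with corn oil as vehicle. The Old group, mice O1 to O5, was 22 months of age and had the same vehicle. The PDX group, mice P1 to P5, was also 22 months of age and was given protectin DX, a lipid mediator derived from docosahexaenoic acid, at 30 ng per g of body weight in corn oil. No group carried a genetic modification. Daily gavage lasted 9 weeks by the treatment protocol, although the series text puts it at 8. The ages are those of the labels, which the study's methods give for the baseline, so the mice were some months older when the livers were taken.

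NRF2 is a leucine zipper transcription factor that responds to oxidants and electrophiles. In unstressed cells the adaptor KEAP1 holds NRF2 and passes it to a ubiquitin ligase for degradation, so the activity of NRF2 is set largely by protein stability and less by its mRNA. Once stabilized, NRF2 pairs with small MAF proteins and binds antioxidant response elements near genes for quinone reduction, glutathione synthesis, thiol repair and NADPH supply. The repressor BACH1 competes for the same elements, most prominently at Hmox1. In the liver this program protects hepatocytes during drug detoxification, and it has been studied widely in aging. The data here are mRNA levels, and neither NRF2 protein nor its binding was measured.

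The letters through which NRF2 is known to act were looked up in the promoters, so that the genes can be seen beside their regulatory sequence. The core of the antioxidant response element, TGACNNNGC, was searched on both strands of RefSeq promoter windows (mouse build GRCm38.p6) that run from 250 bases before to 50 bases after a start. Windows were matched for 7 of the 10 genes: Nfe2l2, Srxn1, Gclm, Nqo1, Txnrd1, Nqo2 and G6pdx. The core was present in at least 1 window of 5 of these 7 genes (71.4%), against 14.0% of the 27025 genes with a window. Counted by window, it was in 5 of 10 (50%), against 12.4% of 32851 windows of all genes. Txnrd1 and Nqo2 had more than 1 window, which gives a gene more chances of a match. The core was not in the windows of Nqo1 and Nqo2, and in Srxn1 it lay 28 bases after the start. The 4 matches that lay before a start are shown with the bases around them, 5′ to 3′ along the strand of the gene, and the capitals mark the core or its reverse complement.
Nfe2l2 (chr2:75704870-75704913, minus strand, 240 bases before the start): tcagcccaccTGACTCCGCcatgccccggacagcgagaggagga
Gclm (chr3:122245398-122245456, plus strand, 134 bases before the start): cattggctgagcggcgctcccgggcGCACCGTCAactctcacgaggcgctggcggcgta
Txnrd1 (chr10:82859089-82859147, plus strand, 92 bases before the start): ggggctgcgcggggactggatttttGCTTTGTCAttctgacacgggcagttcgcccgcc
G6pdx (chrX:74428904-74428962, minus strand, 57 bases before the start): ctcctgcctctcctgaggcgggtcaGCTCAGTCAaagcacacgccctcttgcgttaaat
A match is a run of letters and not a measured binding site, and no match says only that these letters are not in the window searched. In the promoter of Nfe2l2 the core was the forward sequence, and in Gclm, Txnrd1 and G6pdx it was the reverse complement.

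Counted read pairs ranged from 22424383 to 36070835 per Adult mouse, from 25480180 to 29069346 per Old mouse and from 26113995 to 30139181 per PDX mouse, and the 10 genes had between 205 and 13275 read pairs in a mouse. Levels are given as CPM, the read pairs of a gene relative to the total of its library, after TMM normalization, a scaling that evens out differences in library composition. The libraries had the markers of liver: Alb, Apoa1, Ttr, Tat and Cps1 of hepatocytes were detected in every mouse, with summed CPM from 58909 to 200258. By the labels all Adult mice were robust, while O2 to O5, P4 and P5 were frail. In the Old group O2 and O5 stood apart from the other mice. O2 had the shortest treadmill distance of the 15 mice (33.9 m) and O5 the highest frailty index (0.56). The study states that these mice appear to lie at the extreme of frailty and drove much of the pathway differences of the Old group. O2 had the highest summed CPM of the Kupffer cell (2418), recruited macrophage (172), B cell (97.4), T cell (36.5) and erythroid (966) markers. O5 had the lowest summed CPM of hepatocyte (58909) and sinusoidal endothelium (82.3) markers of the 15 mice. Alb made up most of the hepatocyte sum, with a mean of 106556 CPM in Old mice beside 8087 for Apoa1, the next highest. For several of the 10 genes and for the correlations with Nfe2l2, results are therefore also given without O2 and O5. Levels and fold changes of single genes outside the 10 are given only with both mice included. In whole liver, fewer cells of a type and less RNA per cell cannot be told apart.

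By mean level, Gclc was the highest of the 10 genes and G6pdx the lowest. Per kb of exon, the mean of the 3 group means was 52.8 CPM per kb for Gclc, 32.8 for Hmox1, 25.0 for Gclm, 25.0 for Gsr, 22.3 for Nqo2, 20.5 for Txnrd1, 18.6 for Srxn1, 18.1 for Nfe2l2, 10.1 for Nqo1 and 5.46 for G6pdx. The place of Hmox1 rested on O2, without which its mean was 24.9. Of neighbors in this order, Gclc lay above Hmox1 in 11 of 15 mice, in all 5 Adult mice but in 3 of 5 Old and 3 of 5 PDX mice. Nfe2l2 lay above Nqo1 in 15 of 15 mice and Nqo1 above G6pdx in 14 of 15, while Srxn1 lay above Nfe2l2 in only 6 of 15, a difference within their spread. The order in the middle differed between the groups. In the Adult group Hmox1, at 15.6 ± 5.40 CPM per kb (SD, n = 5), lay below Gclm (29.6 ± 1.13) in all 5 mice without overlap. In the PDX group Hmox1, at 32.8 ± 8.08 (SD, n = 5), lay above Gclm (22.5 ± 2.78) in all 5 mice, with overlapping ranges. In the Old group only Nfe2l2 and Nqo1, of the 9 pairs of neighbors, had ranges that did not overlap.

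**Figure D1:**
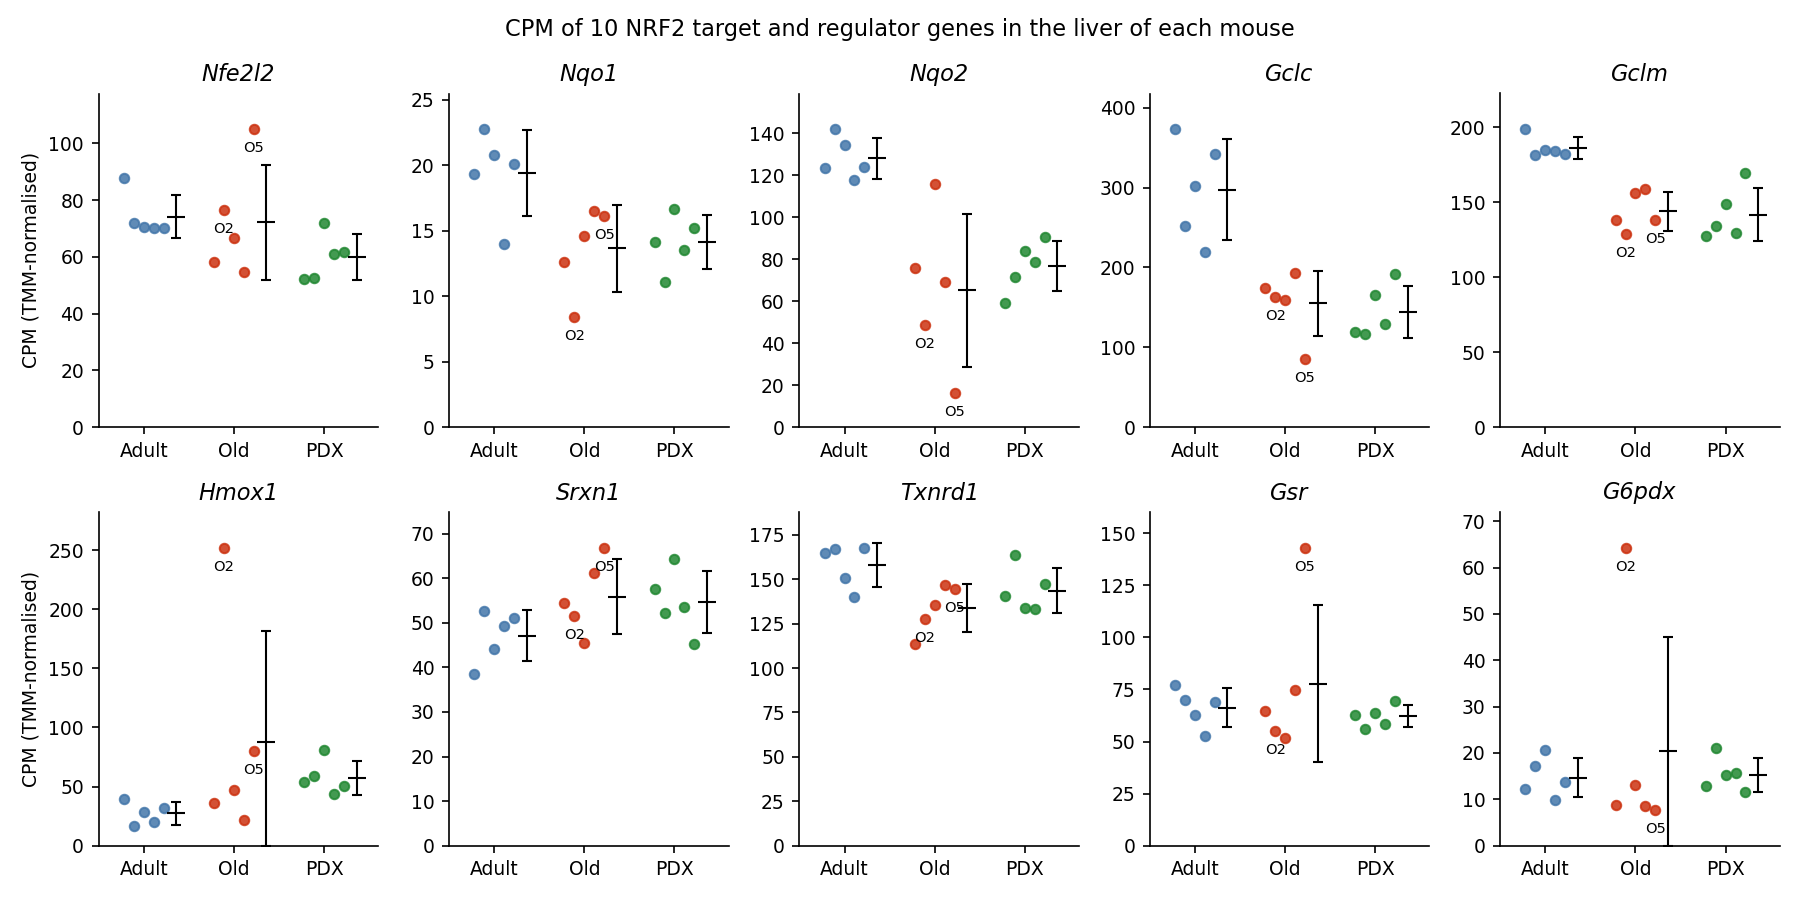
CPM after TMM normalization (vertical axes, linear from 0) of the 10 genes in each Adult, Old and PDX mouse; each point is 1 mouse, and the bar beside it is the group mean ± SD (n = 5), drawn down to 0 where the SD exceeds the mean. Gclc, Gclm and Nqo2 are higher in all Adult mice than in any Old mouse. In the Old group 1 mouse lies far above the rest in Hmox1, Gsr and G6pdx: O2 at 252 and 64.3 CPM for Hmox1 and G6pdx, and O5 at 143 CPM for Gsr. O5 also lies above every Adult mouse in Hmox1, at 80.1 CPM.

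The comparison of Old with Adult mice asks how the liver changes with age. Gclc, the catalytic subunit of glutamate-cysteine ligase and the rate-limiting enzyme of glutathione synthesis, fell, with 1.92-fold lower levels in the Old group. It was the only 1 of the 10 genes past the threshold of 0.05 after Benjamini-Hochberg adjustment over all genes tested with edgeR's quasi-likelihood model. The log2 fold changes of the 10 genes ran from -0.98 (Nqo2) to 1.68 (Hmox1), with a median of -0.14 beside 0.07 for all genes tested. Of all genes tested, 6.78% passed in either direction and 2.07% were past it and lower in Old mice. Nqo2, Gclc and Gclm were lower in every Old mouse than in every Adult mouse. Of all genes, 8.13% had groups that did not overlap, 4.48% with the Old group lower. An unadjusted p under 0.05 was found for 6 of the 10 genes and for 27.7% of all genes. The call of Gclc was lost with an adjusted p of 0.102 (edgeR) in a fit of only the Adult and Old mice, which placed 0.698% of all genes past the threshold, and with 0.0577 to 0.0737 (edgeR) when A1, A2, A3 or A5 was left out. Without O2 and O5 the count stayed at 1 of the 10, beside 7.12% of all genes. DESeq2's Wald test, the test of the study's methods, placed 4 of the 10 past 0.05, Gclc, Gclm, Hmox1 and Nqo2, beside 16.2% of all genes with an adjusted p in that test.

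The comparison of PDX with Adult mice sets the treated 22-month-old mice beside the same Adult mice. Gclc fell here as well, with 2.06-fold lower levels in the PDX group, and it was again the only 1 of the 10 genes past the threshold (edgeR, adjusted p = 0.0223). Of all genes tested, 2.66% passed in either direction and 0.898% were past it and lower in PDX mice. The log2 fold changes ran from -1.04 (Gclc) to 1.07 (Hmox1), with a median of -0.22 beside -0.01 for all genes. Groups without overlap were found for Nqo2, Gclc and Gclm, lower in every PDX mouse, and for Hmox1, higher in every PDX mouse, against 19.9% of all genes in either direction and 9.34% lower. An unadjusted p under 0.05 was found for 4 of the 10 genes and for 20.6% of all genes, and DESeq2 placed 2 of the 10, Gclc and Gclm, past 0.05 beside 8.88% of all genes. The count depended on which mice were in the fit: 6 of the 10 genes passed in a fit of only the Adult and PDX mice (Gclc, Gclm, Hmox1, Nfe2l2, Nqo1 and Nqo2) and 5 without O2 and O5 (all of these but Nfe2l2). The same fits placed 29.6% and 24.6% of all genes past the threshold. Without A1, A3, A5, P1, P2 or P4 the count was 0, with an adjusted p of Gclc from 0.0565 to 0.0728 (edgeR).

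The comparison of PDX with Old mice asks for an effect of protectin DX at the same age. None of the 10 genes passed the threshold of 0.05 or the wider one of 0.25 (edgeR, adjusted p from 0.793 to 0.966). At both thresholds 0.0% of all genes passed. An unadjusted p under 0.05 was found for 834 of all genes (5.28%) and for 0 of the 10, and DESeq2 also called 0 genes at 0.05. No gene of the 10 had PDX and Old mice without overlap, beside 0.342% of all genes. The 95% intervals of the log2 difference leave room for changes in both directions: from -0.26 to 0.22 for Gclm, from -0.57 to 0.37 for Gclc, from -0.62 to 0.08 for Nfe2l2, and from -1.69 to 0.48 for Hmox1. The missed threshold therefore does not show that the treated and untreated Old mice were alike in these genes. The 3 comparisons share mice, so their values are set side by side and not counted as separate evidence.

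**Figure D2:**
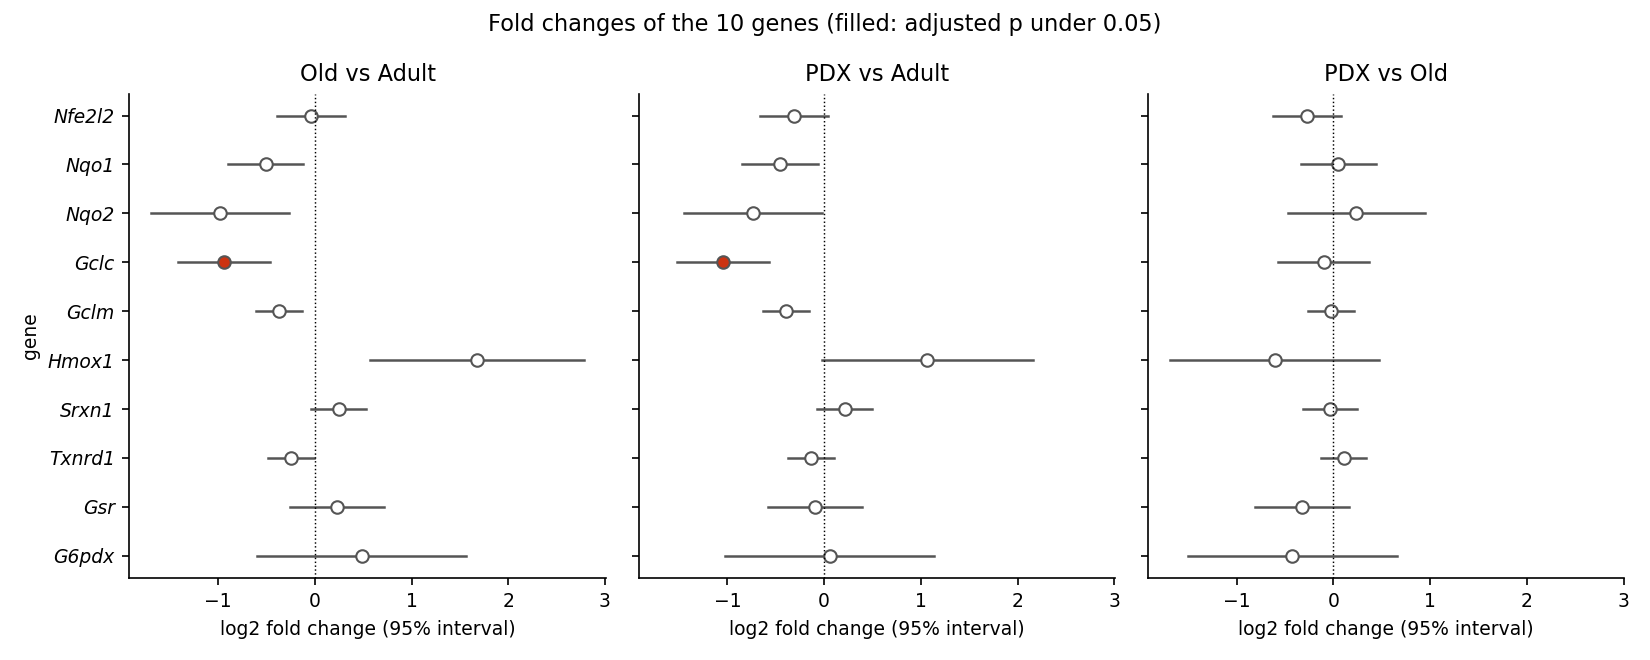
Log2 fold changes (horizontal axes) of the 10 genes in Old against Adult, PDX against Adult and PDX against Old mice, from edgeR's fit of all 15 mice; points are estimates, lines are 95% intervals and filled points have an adjusted p under 0.05. Gclc is the only filled point, at -0.94 in Old and -1.04 in PDX against Adult mice, and every interval of PDX against Old includes 0.

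Nfe2l2 mRNA was at nearly the same mean level in Adult and Old mice. Nfe2l2 (chromosome 2, 75675513 to 75704641 of GRCm38, minus strand) had 87.7, 71.8, 70.6, 70.3 and 70.3 CPM in A1 to A5, 58.1, 76.6, 66.6, 54.5 and 105 in O1 to O5, and 52.1, 52.5, 71.9, 61.0 and 61.7 in P1 to P5. The Old mice spread on both sides of the Adult mice, with O5 the highest of all 15. The log2 fold change was -0.04 (SE 0.17) in Old against Adult mice (edgeR, adjusted p = 0.904) and -0.31 (SE 0.17) in PDX against Adult mice (adjusted p = 0.301). Without O2 and O5 the Old estimate was -0.30 (edgeR, adjusted p = 0.150), and PDX mice then differed from the remaining Old mice by 0.01 on the log2 scale. Keap1, whose product holds NRF2 for degradation, had 86.1 ± 3.65, 87.2 ± 11.0 and 89.2 ± 5.47 CPM (SD, n = 5 each) in the Adult, Old and PDX groups, a log2 difference of 0.02 in Old against Adult mice (edgeR, adjusted p = 0.924). Bach1, the competing repressor, had 23.1 ± 7.66, 25.5 ± 12.2 and 18.1 ± 1.17 CPM (SD, n = 5 each), and none of its 3 comparisons passed the threshold.

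Neither of the quinone reductases passed the threshold in the fit of all 15 mice. Nqo1, an NAD(P)H-dependent enzyme that reduces quinones without forming radicals and is a widely used readout of NRF2, lies on chromosome 8 (107388225 to 107403206, minus strand). Nqo1 had 19.3, 22.8, 20.8, 14.0 and 20.1 CPM in the Adult mice, 12.6, 8.43, 14.6, 16.5 and 16.1 in the Old mice, and 14.1, 11.1, 16.7, 13.5 and 15.2 in the PDX mice. All 5 Old and all 5 PDX mice lay below the Adult mean, and A4 overlapped both groups. The log2 fold change was -0.51 (SE 0.18) in Old and -0.46 (SE 0.18) in PDX against Adult mice (edgeR, adjusted p = 0.0909 and 0.173).

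Nqo2, a related reductase that uses dihydronicotinamide riboside, lies on chromosome 13 (33964687 to 33988443, plus strand) and overlaps Serpinb6a on the opposite strand. Nqo2 had 123, 142, 134, 118 and 124 CPM in the Adult mice, 75.8, 48.6, 116, 69.3 and 16.3 in the Old mice, and 59.3, 71.7, 84.1, 78.8 and 90.5 in the PDX mice. Neither older group overlapped the Adult group, although O3 came close to it, and O5 was far below all other mice. The log2 fold change was -0.98 (SE 0.34) in Old and -0.74 (SE 0.33) in PDX against Adult mice (edgeR, adjusted p = 0.0789 and 0.226). Without O2 and O5 it was -0.55 in Old against Adult mice (edgeR, adjusted p = 0.0634) and -0.72 in PDX against Adult mice (adjusted p = 0.00319), so leaving out 2 Old mice moved the comparison of PDX with Adult mice past the threshold while its estimate hardly changed. O5 also had the lowest summed hepatocyte markers, a sum made up mostly of Alb. It was 58909 CPM in O5 against 74955 in O2 and 126584 to 200258 in O1, O3 and O4. Other single genes went both ways in O5. Hpx, which encodes the plasma protein hemopexin, was higher in O5 (28290 CPM) than in any other mouse. Cat, the peroxisomal catalase, was lower in O5 (254 CPM) than in any other mouse. The part of the hepatocyte marker sum in the value of Nqo2 was not tested.

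Glutathione synthesis starts with glutamate-cysteine ligase, a dimer of the catalytic subunit Gclc and the modifier subunit Gclm, which lowers feedback inhibition by glutathione. Gclc (chromosome 9, 77754535 to 77794485, plus strand) had 373, 251, 302, 219 and 342 CPM in the Adult mice, 175, 162, 159, 193 and 85.2 in the Old mice, and 120, 116, 165, 130 and 192 in the PDX mice. Every Adult mouse lay above every older mouse, and the highest Old and PDX mice, O4 and P5, were alike at 193 and 192. Mean Gclc was 297.5 ± 63.3 CPM in Adult, 155 ± 41.2 in Old and 145 ± 32.8 in PDX mice (SD, n = 5 each). The log2 fold change was -0.94 (SE 0.22) in Old and -1.04 (SE 0.22) in PDX against Adult mice (edgeR, adjusted p = 0.0281 and 0.0223). Without O2 and O5 both values stayed past the threshold, at -0.75 (edgeR, adjusted p = 0.0380) and -1.02 (adjusted p = 0.00115). Of the 5 hepatocyte markers 0 passed the threshold in either comparison, and their log2 fold changes went both ways, from -1.04 (Ttr) to 0.68 (Tat) in Old and from -0.66 (Cps1) to 0.74 (Apoa1) in PDX against Adult mice. Ttr, which encodes the thyroid hormone carrier transthyretin, was lower in every older mouse than in every Adult mouse. Against every Adult mouse, every PDX mouse was also lower in Cps1 but higher in Apoa1. Of all genes, 8.13% had groups without overlap in Old and 19.9% in PDX against Adult mice, in either direction. The part of the hepatocyte markers in the value of Gclc was not tested.

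Gclm (chromosome 3, 122245557 to 122270732, plus strand) differed less in size but varied little. It had 199, 182, 185, 184 and 182 CPM in the Adult mice, 138, 129, 156, 159 and 138 in the Old mice, and 128, 134, 149, 129 and 169 in the PDX mice. Neither older group reached the lowest Adult mouse. The log2 fold change was -0.37 (SE 0.11) in Old and -0.39 (SE 0.11) in PDX against Adult mice (edgeR, adjusted p = 0.0573 and 0.0739), just short of the threshold. The pseudogene Gm6061 overlaps Gclm on the same strand, and reads in the overlap cannot be given to either by strand.

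The ratio of the subunits per kb of exon was examined after their values had been seen. Gclc stood to Gclm as 3.14, 2.31, 2.73, 1.98 and 3.14 in the Adult mice, 2.12, 2.11, 1.70, 2.03 and 1.03 in the Old mice, and 1.57, 1.45, 1.86, 1.68 and 1.89 in the PDX mice. All PDX mice and 5 of 5 Old mice lay below the Adult mean of 2.66 ± 0.511 (SD, n = 5), and A4 alone came down into the range of the Old group. On the log2 scale the ratio differed by -0.64 between PDX and Adult mice without overlap (exact two-sided permutation test, p = 0.00794, the smallest that 5 against 5 mice can give; 0.0476 after Benjamini-Hochberg adjustment over 6 ratio comparisons). Between Old and Adult mice it differed by -0.59 (exact permutation p = 0.0317, adjusted 0.0635), and between PDX and Old mice by -0.05 (exact permutation p = 0.849). With any 1 mouse left out the log2 difference of PDX from Adult mice stayed between -0.74 and -0.58, and no p is given for it, since 4 against 5 mice cannot give an exact p under 0.0159 before adjustment. The ratio of Nqo2 to Nqo1 was 2.59 ± 0.364 in Adult, 1.91 ± 0.995 in Old and 2.11 ± 0.338 in PDX mice (SD, n = 5 each), with no comparison past 0.05 after adjustment and O5 the lowest at 0.388.

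**Figure D3:**
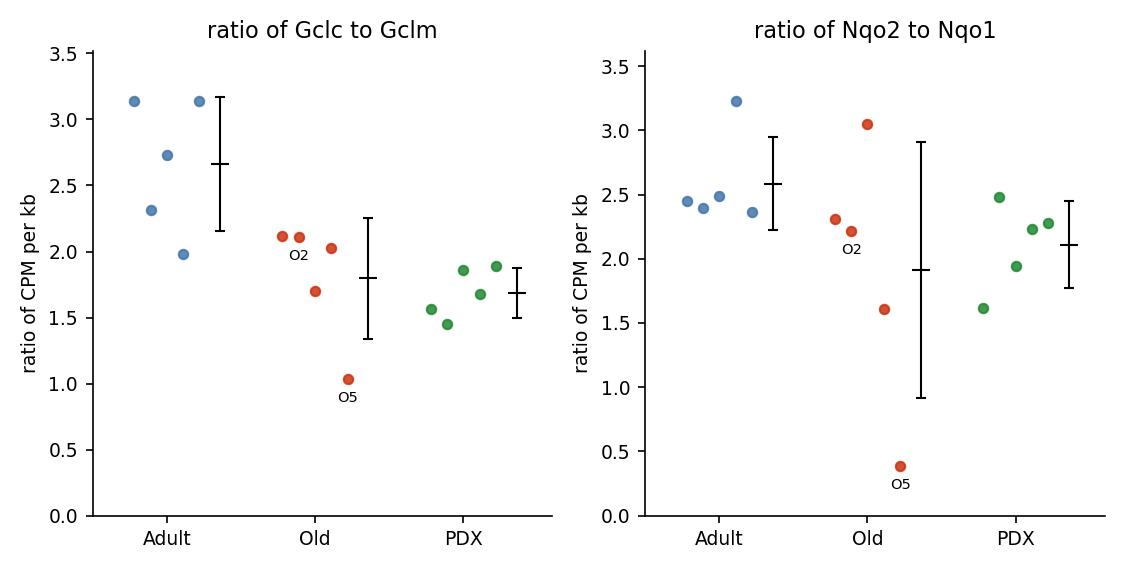
Ratio of CPM per kb of Gclc to Gclm (left) and of Nqo2 to Nqo1 (right) in each Adult, Old and PDX mouse, on linear axes from 0; bars are the group mean ± SD (n = 5). The Gclc to Gclm ratio is 1.98 to 3.14 in the Adult mice and 1.45 to 1.89 in the PDX mice, and O5 is the lowest mouse in both panels.

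Hmox1, the inducible heme oxygenase that opens heme into biliverdin, iron and carbon monoxide, was higher on average in both older groups than in Adult mice, without passing the threshold. Hmox1 (chromosome 8, 75093621 to 75100589, plus strand) had 39.7, 16.3, 28.8, 19.7 and 32.2 CPM in the Adult mice, 35.8, 252, 47.2, 21.9 and 80.1 in the Old mice, and 53.7, 58.7, 80.7, 43.7 and 50.1 in the PDX mice. All PDX mice lay above all Adult mice, whereas the Old mice ranged from inside the Adult range to O2, far above every other mouse. The log2 fold change was 1.68 (SE 0.52) in Old against Adult mice (edgeR, adjusted p = 0.0610) and 1.07 (SE 0.51) in PDX against Adult mice (adjusted p = 0.252). Without O2 and O5 it was 0.37 in Old (edgeR, adjusted p = 0.469) and 1.09 in PDX against Adult mice (adjusted p = 0.00764), and the difference of PDX from Old mice turned from -0.61 to 0.72, neither past the threshold.

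Markers of macrophages were also higher on average in both older groups than in Adult mice. The 5 Kupffer cell markers, which name the resident macrophages that degrade heme from red cells, summed to 358 to 549 CPM in Adult, 237 to 2418 in Old and 615 to 1253 in PDX mice, with O2 the highest. O5, at 80.1 CPM of Hmox1, had the lowest sum of all 15 mice, 237 CPM. All 5 were higher on average in Old and in PDX than in Adult mice, with median log2 fold changes of 1.06 and 0.84 and 0 of 5 past the threshold in each. Recruited macrophage markers summed to 3.9 to 6.7 CPM in Adult, 17.0 to 172 in Old and 21.1 to 58.2 in PDX mice. Of these 5, 3 rose past the threshold in Old and 1 in PDX against Adult mice. Of all genes tested, 6.78% and 2.66% passed in either direction in these comparisons. None of these markers was at 0 in any mouse, and their part in the level of Hmox1 was not tested. The constitutive heme oxygenase Hmox2 had 53.1 ± 3.16, 57.1 ± 7.56 and 61.4 ± 6.30 CPM (SD, n = 5 each) in Adult, Old and PDX mice, and no comparison of it passed the threshold.

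The enzymes of thiol repair differed little. Srxn1, the sulfiredoxin that restores overoxidized peroxiredoxins (chromosome 2, 152105516 to 152111376, plus strand), had 38.6 to 52.6 CPM in Adult, 45.4 to 66.8 in Old and 45.3 to 64.3 in PDX mice, with log2 differences from Adult mice of 0.25 (SE 0.13) and 0.21 (SE 0.13). Txnrd1, the cytosolic thioredoxin reductase (chromosome 10, 82833951 to 82897712, plus strand), had 140 to 168 CPM in Adult, 113 to 147 in Old and 133 to 163 in PDX mice, with differences of -0.24 (SE 0.11) and -0.14 (SE 0.11). All 5 Old mice had less Txnrd1 than the Adult mean, but the ranges overlapped and the adjusted p was 0.168 (edgeR). Eid3 overlaps Txnrd1 on the same strand.

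Gsr, glutathione reductase, which uses NADPH to return oxidized glutathione to its reduced form (chromosome 8, 33652523 to 33698163, plus strand), had 77.1, 69.9, 62.9, 52.7 and 69.0 CPM in the Adult mice, 64.6, 55.1, 51.5, 74.6 and 143 in the Old mice, and 62.6, 56.1, 63.8, 58.3 and 69.6 in the PDX mice. The 3 groups overlapped, and O5 alone lay above the rest. The log2 difference of Old from Adult mice was 0.23 (SE 0.23), and -0.05 without O2 and O5 (edgeR, adjusted p = 0.549 and 0.853). In PDX against Adult mice it was -0.10 (SE 0.23).

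G6pdx, glucose-6-phosphate dehydrogenase, which feeds NADPH to these reductases from the pentose phosphate pathway, lies on chromosome X (74409483 to 74429194, minus strand). It had 12.3, 17.1, 20.7, 9.77 and 13.7 CPM in the Adult mice, 8.71, 64.3, 13.1, 8.58 and 7.72 in the Old mice, and 12.8, 21.1, 15.3, 15.6 and 11.5 in the PDX mice. O2 lay far above all mice and the other 4 Old mice lay below the Adult mean, so the mean and most of the mice of the Old group point in opposite directions. The log2 difference of Old from Adult mice was 0.48 (SE 0.51) and turned to -0.61 without O2 (edgeR, adjusted p = 0.569 and 0.144). The intronless copy G6pd2 resembles G6pdx closely, and counts of uniquely aligned pairs may be incomplete for both.

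Of the 10 genes, 9 varied most among the Old mice, and Gclm varied most among the PDX mice. The same count was not made over all genes, so this spread cannot be called particular to these 10. The study reports wide variation of liver gene expression within the Old group, with O2 and O5 apart from the rest. The coefficient of variation over the 5 mice had a median over the 10 genes of 13.0% among Adult, 27.3% among Old and 14.1% among PDX mice, and it was 14.1% in O1, O3 and O4. It ran from 3.81% (Gclm) to 34.6% (Hmox1) in the Adult group and from 9.10% (Gclm) to 120% (G6pdx) in the Old group, and for Gclm it was 12.3% in the PDX group. Over the 15 mice, O5 held the highest value of 3 genes (Nfe2l2, Srxn1 and Gsr) and the lowest of 3 (Nqo2, Gclc and G6pdx), and O2 held the highest of 2 (Hmox1 and G6pdx) and the lowest of 1 (Nqo1). In some genes only 1 of them departed: O5 was high in Gsr and low in Gclc, and O2 was at 55.1 and 162 CPM in these, near the other Old mice. In others both did: O2 and O5 were the lowest Old mice in Nqo2 and the highest Old mice in Nfe2l2 and Hmox1.

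The other genes of the pathway came from 7 lists of 76 genes, of which 71 were tested. Of these, 2 rose and 6 fell in Old against Adult mice, where 6.78% of all genes passed in either direction and 2.07% were lower, with a median log2 fold change of -0.19 beside 0.07 for all genes tested. In PDX against Adult mice 3 rose and 1 fell, where 2.66% of all genes passed, with a median of -0.11 beside -0.01 for all genes. None passed the threshold between PDX and Old mice (edgeR, 3 of 71 with an unadjusted p under 0.05, and DESeq2 also called 0), where the median was 0.03 beside -0.07. These counts depended on the mice in the fit. In Old against Adult mice the count was 1 to 17 with 1 mouse left out (17 without O3, 1 to 3 without any 1 of the Adult mice). Gpx3 alone passed in all 15 of these fits. The other calls held in 7 (Gsta4), 8 (Prdx6 and Aldh1l1), 10 (Hpx and Abcc2) or 11 fits (Gpx1 and Gstm1). In PDX against Adult mice the count was 1 to 13, and 27 in a fit of only these groups or 28 without O2 and O5. These last 2 fits placed 29.6% and 24.6% of all genes past the threshold. Abcc2 alone passed in all 15 fits with 1 mouse left out, Gpx3 in 14, and Hpx and Osgin1 in 7 each.

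Among enzymes that supply or use glutathione, 1 of 11 tested genes rose and 1 fell in Old against Adult mice. Of all genes tested, 6.78% passed in either direction there. Gpx1, the cytosolic glutathione peroxidase, fell from 1736 ± 124 to 945 ± 257 CPM (SD, n = 5 each; log2 fold change -0.88, SE 0.19; edgeR, adjusted p = 0.0213), with no Old mouse in the Adult range. In the PDX group Gpx1 had 1386 ± 97.4 CPM (SD, n = 5), with every PDX mouse above every Old mouse and below every Adult mouse. Neither difference of the PDX group passed, with log2 0.55 from Old and -0.32 from Adult mice (edgeR, adjusted p = 0.793 and 0.338). Gpx1 was the only 1 of the 71 genes without overlap of PDX and Old mice, beside 0.342% of all genes. Gpx3, the secreted glutathione peroxidase of plasma, rose from 6.13 ± 0.981 to 48.0 ± 40.0 CPM (SD, n = 5 each; log2 fold change 2.97, SE 0.50; edgeR, adjusted p = 0.00768). It was 34.6 ± 17.5 CPM in the PDX group and also past the threshold there, with a log2 fold change of 2.50 from Adult mice (edgeR, adjusted p = 0.0141). Gss, which adds glycine in the second step of glutathione synthesis, had 62.7 ± 17.3, 99.1 ± 48.1 and 75.7 ± 17.3 CPM (SD, n = 5 each) in Adult, Old and PDX mice, and the difference of 0.66 on the log2 scale between Old and Adult mice did not pass the threshold (edgeR, adjusted p = 0.174). Slc7a11, the cystine importer that many cells use to feed glutathione synthesis, had too few reads to be tested, with 2.63 CPM in O5 and at most 0.16 CPM in any other mouse.

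Of the other NRF2 targets of liver, 3 of 16 tested genes fell in Old against Adult mice and none rose. Of all genes tested, 6.78% passed in either direction and 2.07% were past the threshold and lower. Gsta4, which conjugates 4-hydroxynonenal, fell from 95.1 ± 8.95 to 39.0 ± 17.9 CPM (SD, n = 5 each; log2 fold change -1.29, SE 0.34; edgeR, adjusted p = 0.0393). Gstm1 fell from 1425 ± 190 to 633 ± 175 CPM (SD, n = 5 each; log2 fold change -1.17, SE 0.26; edgeR, adjusted p = 0.0246), with the reserve that the Gstm genes are alike in sequence and unique alignment could split their reads. Abcc2, the canalicular pump that exports glutathione conjugates into bile, fell from 427 ± 48.4 to 276 ± 61.6 CPM in Old mice and to 249 ± 11.7 CPM in PDX mice (SD, n = 5 each; log2 fold changes -0.63 and -0.78; edgeR, adjusted p = 0.0297 and 0.0152). In these 3 genes, named because they passed in Old against Adult mice, no Old and no PDX mouse lay in the Adult range. Of all genes, 4.48% were lower without overlap in Old and 9.34% in PDX against Adult mice. The PDX group had 48.9 ± 15.0 CPM of Gsta4 and 702 ± 248 CPM of Gstm1 (SD, n = 5 each; log2 fold changes -0.96 and -1.02 from Adult mice; edgeR, adjusted p = 0.133 and 0.0513). Osgin1, chosen for mention after its value was seen, rose in PDX against Adult mice from 117 ± 91.5 to 418 ± 91.4 CPM (SD, n = 5 each; log2 fold change 1.83, SE 0.41; edgeR, adjusted p = 0.0286). The Old group lay between them at 234 ± 62.2 CPM (SD, n = 5). The call of Osgin1 held in 7 of the 15 fits with 1 mouse left out.

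In the thioredoxin and peroxiredoxin list 1 of 12 genes fell in Old against Adult mice: Prdx6, a peroxiredoxin that also reduces phospholipid peroxides, from 529 ± 39.1 to 320 ± 94.4 CPM (SD, n = 5 each; log2 fold change -0.73, SE 0.19; edgeR, adjusted p = 0.0348). Past the threshold and lower in Old mice were 2.07% of all genes. The PDX group had 353 ± 40.4 CPM (SD, n = 5) of Prdx6, also below every Adult mouse (edgeR, adjusted p = 0.104). Txn1, the substrate of Txnrd1, had 160 ± 9.03, 129 ± 35.6 and 148 ± 8.84 CPM (SD, n = 5 each) in Adult, Old and PDX mice and did not pass the threshold. Of 9 NADPH supply genes, Aldh1l1, a folate enzyme that yields NADPH, fell in Old mice from 2930 ± 473 to 1339 ± 704 CPM (SD, n = 5 each; log2 fold change -1.13, SE 0.29; edgeR, adjusted p = 0.0339). It was 1759 ± 320 CPM (SD, n = 5) in the PDX group (edgeR, adjusted p = 0.164 from Adult mice). Pgd, the next NADPH-forming enzyme after G6pdx in the pentose phosphate pathway, had 76.0 ± 15.6, 93.8 ± 16.7 and 102 ± 15.0 CPM (SD, n = 5 each) in Adult, Old and PDX mice and did not pass the threshold.

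Of 8 genes of heme and iron handling, Hpx, the plasma protein hemopexin that binds free heme and is made as an acute-phase protein, rose in Old mice. It went from 3774 ± 220 CPM in Adult to 12252 ± 9158 in Old and 13719 ± 7534 in PDX mice (SD, n = 5 each; log2 fold changes 1.70 and 1.86; edgeR, adjusted p = 0.0319 and 0.0311). Of all genes, 6.78% passed in Old and 2.66% in PDX against Adult mice. None of the 4 genes that remove superoxide or peroxide passed. Cat, the peroxisomal catalase, had 2722 ± 129 CPM in Adult, 1273 ± 694 in Old and 1618 ± 123 in PDX mice (SD, n = 5 each), with no older mouse in the Adult range and an adjusted p of 0.0750 and 0.260 (edgeR). Of the 11 regulators and partners of NRF2, none passed the threshold, with log2 fold changes of -0.44 to 0.93 in Old against Adult mice.

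**Figure D4:**
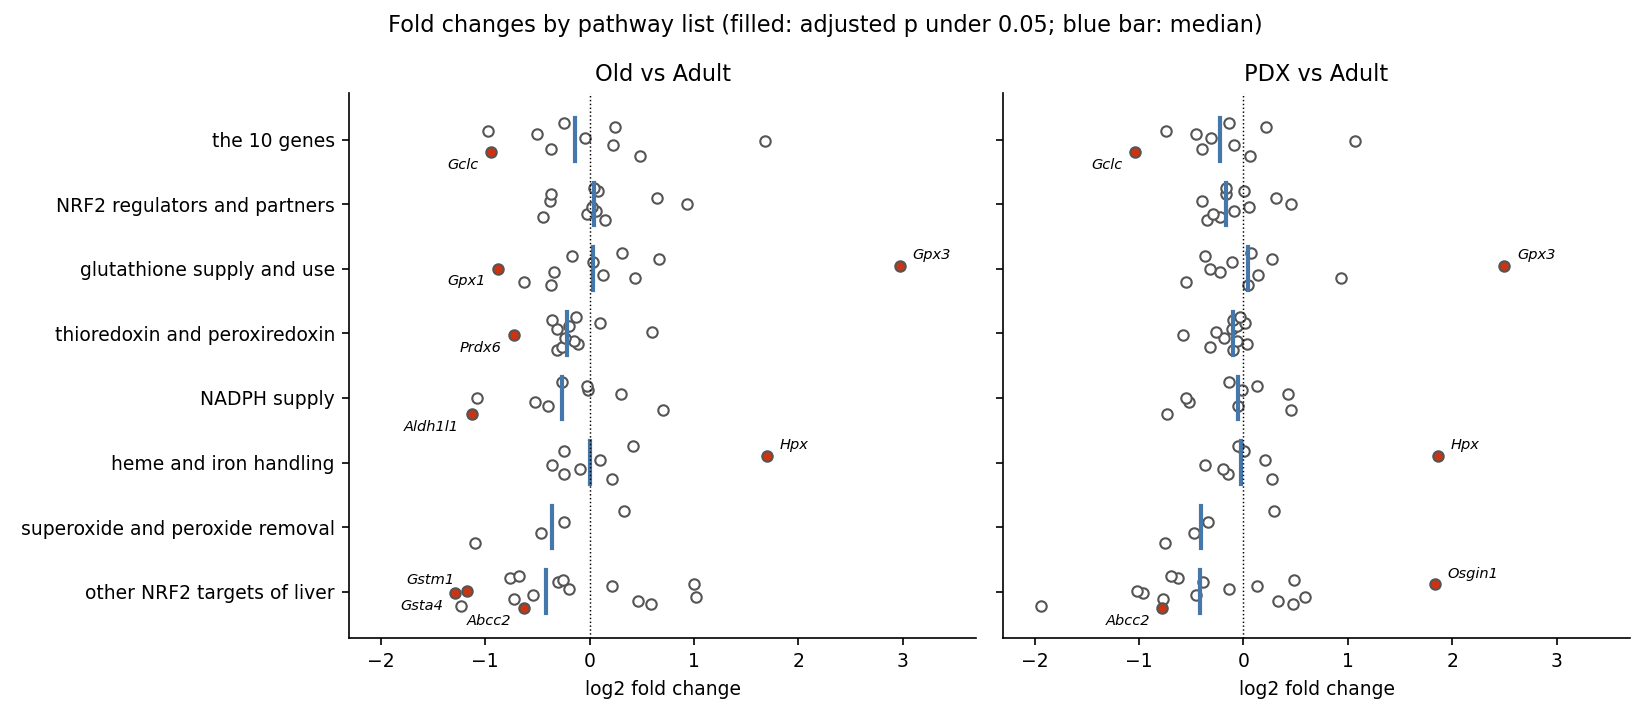
Log2 fold changes (horizontal axes) of the 10 genes and of the tested genes of 7 pathway lists in Old against Adult (left) and PDX against Adult mice (right); each point is 1 gene, filled points have an adjusted p under 0.05 and blue bars are list medians. The named filled points include Gclc in both panels at -0.94 and -1.04, and Gpx3 is the farthest to the right at 2.97 and 2.50.

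The level of Nfe2l2 mRNA was also set beside that of each target across the 15 mice. None of 9 correlations of log2 CPM passed 0.05 after Benjamini-Hochberg adjustment over the 9. The largest was with Gsr (Pearson r = 0.60, permutation p = 0.0237, adjusted 0.214; Spearman rho = 0.33, permutation p = 0.238, adjusted 0.666), and without the 2 mice farthest from the median of Nfe2l2, O5 and P1, it was 0.13, so it rested on those mice. Nqo1 had r = 0.27 and rho = 0.43 (permutation p = 0.324 and 0.115), Gclm r = 0.31 and rho = 0.39 (p = 0.265 and 0.150), and Nqo2 r = -0.29 and rho = 0.23 (p = 0.277 and 0.420), with adjusted values from 0.666 to 0.743 for these 3 genes. With O2 and O5 left out, 4 of the 9 passed over 13 mice: Nqo2 (r = 0.83, adjusted permutation p = 0.00396), Gclm (0.79), Gclc (0.79) and Nqo1 (0.68). The Adult mice were high in all of these genes, and after subtraction of each group mean none of the 9 passed over the same 13 mice (permutation within groups, with r of 0.61 for Nqo2, 0.59 for Hmox1, 0.51 for Gclc and 0.51 for Gclm, adjusted p = 0.198, 0.198, 0.350 and 0.356). Within groups over all 15 mice none passed either.

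By likeness over the 15 mice, the genes that moved most closely with Nfe2l2 were Zbtb2 (Pearson r of log2 CPM 0.917), Nfkbil1 (0.903) and Gm21781 (0.896) among the 12023 genes whose log2 CPM averaged 1 or more. For Nqo1 they were Wfdc2 (0.901), Cox8a (0.893) and Bod1 (0.890), and of the 10 genes Gclm came closest to Nqo1 (0.739) while Hmox1 ran opposite (-0.678). Without O2 and O5, over 13 mice, Gclc came closest to Nqo1 (0.814, beside 0.753 for Gclm) and Hmox1 was at -0.461. These are descriptions over 15 mice that share 3 groups, and they say nothing of shared control.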

How the data were processed

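Liver poly(A) RNA of 15 separate mice was sequenced as directional libraries, with 1 library per mouse and paired ends of 50 bases. The authors mapped the reads to mm10 with STAR (version 2.6.0c), counted unique proper pairs on the matching strand of non-mitochondrial Ensembl genes with featureCounts (Subread version 1.6.2), and deposited these counts without normalization. The authors also deposited log2-scale values, which the variance stabilizing transformation (VST) of DESeq2 (version 1.23.10) gave from the counts. Pairs that align to more than 1 place are missing from the counts, so genes with close copies can be understated.

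Symbols, coordinates and exon lengths came from GENCODE M21 (GRCm38) and matched 55104 of 55450 gene IDs. Genes were filtered with filterByExpr (minimum count 10, minimum total count 15) and scaled with TMM, and edgeR (version 4.0.16, with limma version 3.58.1 and R 4.3.3) fitted 1 coefficient per group to all 15 mice. Adjusted p-values are Benjamini-Hochberg values of its quasi-likelihood test over all genes tested, with a threshold of 0.05, and 0.25 in addition between PDX and Old mice. Log2 CPM used a prior count of 2. Intervals cover 95%. Permutation tests (Python 3.11.15, numpy 2.4.6, pandas 2.3.3, scipy 1.17.1) were two-sided, exact for the ratios and with 100000 resamples for correlations. The statistical steps were tested on simulated data.

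The 10 genes and the pathway lists were chosen with earlier results of these data known. All 10 are named. From each other pathway list the text names the genes past the threshold in Old against Adult mice, at most 3 by size of change, and Keap1, Bach1, Gss, Slc7a11, Txn1, Pgd, Hmox2 and Cat whatever their value. For Nfe2l2 and Nqo1 the 3 genes of highest Pearson r are named. The ratios, and the correlations with O2 and O5 left out and group means subtracted, were chosen after the data were seen. Nnt was left out because 2 IDs carry that symbol. The sources used here do not tell which mouse was euthanized in which batch, and comparisons within batches could not be run. The alternatives were RLE size factors, the Wald test of DESeq2 (version 1.42.0), limma on the VST values, no filter on low counts, only the 2 groups compared, each mouse left out in turn, O2 and O5 left out, and a replicate block.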

Additional observations from a re-analysis of the deposited data

Results flagged for a closer look

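In 5 of the 30 groups of 5 mice examined (10 genes in 3 groups), the highest mouse was separated from the other 4 by more than Dixon's 95% limit on the gap as a share of the group's range. Chance alone would mark about 1 in 20 groups. Adult mouse A1 had 87.7 CPM of Nfe2l2, beside 70.3 to 71.8 CPM in the other Adult mice. The same mouse had 199 CPM of Gclm, beside 182 to 185 CPM. Old mouse O2 had 252 CPM of Hmox1, beside 21.9 to 80.1 CPM in the other Old mice. O2 also had 64.3 CPM of G6pdx, beside 7.72 to 13.1 CPM. Old mouse O5 had 143 CPM of Gsr, beside 51.5 to 74.6 CPM in the other Old mice. In the genes named for them, O2 and O5 also lay above every Adult and PDX mouse.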

How the results depend on the processing

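Gclc was past the threshold in 17 of 23 fits in Old against Adult mice and in 16 of 23 in PDX against Adult mice, always lower in the older group. For the calls that changed, the cause was not tested unless a fit held fewer mice or genes. The 10 genes had at least 205 read pairs in each mouse, and whether depth limited a call was not tested.

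In Old against Adult mice, 1072 genes were past the threshold. The count was 2524 with DESeq2, 651 with limma on the VST values, 665 with no low-count filter, 105 with only the 2 groups, and 156 to 2178 with 1 mouse left out (156 without A5, 2178 without O3). Of the 10 genes, 1 passed, with 4 in DESeq2, 0 with only the 2 groups, and 0 to 4 with 1 mouse left out. Of the pathway genes 8 passed, with 19 in DESeq2, 1 with only the 2 groups, and 1 to 17 with 1 mouse left out. In PDX against Adult mice, 420 genes were past the threshold. The count was 1383 with DESeq2, 4529 with only the 2 groups, 4004 without O2 and O5, and 166 to 1766 with 1 mouse left out. Of the 10 genes, 1 passed, with 2 in DESeq2, 6 with only the 2 groups, 5 without O2 and O5, and 0 to 3 with 1 mouse left out. Of the pathway genes 4 passed, with 10 in DESeq2, 27 with only the 2 groups, 28 without O2 and O5, and 1 to 13 with 1 mouse left out.

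The replicate number as a block gave 237 genes past the threshold in Old against Adult mice, with 0 of the 10 genes and 1 pathway gene among them, and 0 of the 10 genes in PDX against Adult mice. The adjusted p of Gclc was then 0.0854 and 0.0654 (edgeR with a replicate block). The labels do not tell whether same-numbered mice share more than a number. The deviations from the group means had a mean correlation of -0.168 between same-numbered Old and Adult mice. It was 0.0920 for PDX and Old and 0.0310 for PDX and Adult mice. Of the 10 mice in each comparison, 0, 4 and 4 correlated best with the mouse of their own number. Why the calls were lost with the block was not tested.

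Without O2 and O5 the log2 difference of Old from Adult mice turned to -0.051 for Gsr and -0.52 for G6pdx. That of PDX from Old mice turned to 0.010 for Nfe2l2, -0.036 for Nqo1, -0.17 for Nqo2, 0.72 for Hmox1, 0.032 for Srxn1 and 0.60 for G6pdx, and to -0.11 for the ratio of Nqo2 to Nqo1. G6pdx also turned with limma on the VST values, to -0.027 in Old against Adult and 0.10 in PDX against Old mice, and with the replicate block, to -0.0046 and 0.051. With 1 mouse left out, the log2 difference of Old from Adult mice ran from -0.21 to 0.050 for Nfe2l2, from -0.11 to 0.34 for Gsr and from -0.61 to 0.69 for G6pdx. That of PDX from Adult mice ran from -0.087 to 0.21 for G6pdx. That of PDX from Old mice ran from -0.084 to 0.13 for Nqo1, from -0.0086 to 0.55 for Nqo2, from -0.093 to 0.017 for Gclm, from -0.85 to 0.31 for Hmox1, from -0.10 to 0.039 for Srxn1, from -0.44 to 0.016 for Gsr and from -0.63 to 0.68 for G6pdx. None of these differences was past the threshold in the fit of all 15 mice. The log2 ratio of Gclc to Gclm ran from -0.69 to -0.40 in Old against Adult, from -0.74 to -0.58 in PDX against Adult and from -0.24 to 0.022 in PDX against Old mice. That of Nqo2 to Nqo1 ran from -0.94 to -0.20, from -0.36 to -0.21 and from -0.10 to 0.64.

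Of the correlations of Nfe2l2 with the other 9 genes, 0 passed 0.05 over all mice, 4 without O2 and O5, and 0 when the group means were also subtracted.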
